A study of Mus musculus with 48 samples.

Results

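Transcripts of the lysosome were followed in the lungs of 48 mice: 39 genes of 12393 measured. The 39 were the 21 genes whose symbols begin with Atp6v or Atp6ap in the array's annotation, and 18 of 20 listed genes of lysosomal hydrolases, other luminal proteins and membrane proteins. Arsb and Cd63, also listed, matched no probe set with a single symbol and were not analysed here, and cathepsins were left out by the rule. Each gene was read on the probe set with the highest mean over the 48 arrays. All 39 genes entered the test, since no filter on low signal was applied. By role they comprise 12 subunits of the V1 sector of the proton pump, 7 subunits of its V0 sector, 2 accessory proteins of the pump, 9 hydrolases, 3 luminal proteins without hydrolase activity and 6 membrane proteins.

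The animals were male C57BL/6 mice, 15 weeks old when exposure began, with 1 Affymetrix array of lung RNA per animal and 8 animals in each of 6 groups. Regular weight (RW) mice ate a diet of about 5 kcal% fat, and diet-induced obese (DIO) mice ate 60 kcal% fat from 6 weeks of age, for 9 weeks before the start. Mice of either diet were held for nose-only inhalation of filtered air (SC), mainstream cigarette smoke (MS) or sidestream cigarette smoke (SS), for 5 h per day on 8 days within 2 weeks. Necropsy was 1 day after the last exposure. The deposited growth protocol also mentions a study with LPS exposure, which no treatment label names. Mainstream smoke is drawn through the cigarette, and sidestream smoke comes off its burning end. Values are log2 signals after RMA, a difference of 1 being a doubling of signal, and levels of different probe sets are not compared with each other.

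The lysosome is the acidic compartment in which cells break down material taken up by endocytosis, phagocytosis and autophagy. Its acidity is made by the vacuolar ATPase, a rotary pump whose cytosolic V1 sector hydrolyses ATP and whose membrane-embedded V0 sector carries protons into the lumen. The hydrolases that work at this pH are carried there by the mannose 6-phosphate pathway or by partners such as LIMP-2, and membrane proteins such as the LAMPs, NPC1 and mucolipin form the boundary through which ions and breakdown products pass. In the lung, alveolar macrophages carry a heavy lysosomal load because they engulf inhaled particles and surfactant, and type 2 cells store surfactant in lysosome-related lamellar bodies. Many lysosomal genes carry the CLEAR element near their start, a sequence built around CACGTG and bound by TFEB and related factors.

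The windows before the start of 5 members are printed to show CACGTG where it is present and 2 of the most changed members where these letters are absent. Other variants of the element were not searched. Sequences are the 250 bases before the RefSeq start in GRCm38.p6, on the strand of the gene, with CACGTG in capitals. The first 3 hold the motif; Gusb and Grn do not.
Lamp1, chr8:13158911-13159160, plus strand: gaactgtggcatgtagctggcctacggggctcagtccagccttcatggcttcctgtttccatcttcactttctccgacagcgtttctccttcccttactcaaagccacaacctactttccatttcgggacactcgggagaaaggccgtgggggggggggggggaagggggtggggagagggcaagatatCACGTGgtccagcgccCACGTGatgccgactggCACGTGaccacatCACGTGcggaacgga
Mcoln1, chr8:3500269-3500518, plus strand: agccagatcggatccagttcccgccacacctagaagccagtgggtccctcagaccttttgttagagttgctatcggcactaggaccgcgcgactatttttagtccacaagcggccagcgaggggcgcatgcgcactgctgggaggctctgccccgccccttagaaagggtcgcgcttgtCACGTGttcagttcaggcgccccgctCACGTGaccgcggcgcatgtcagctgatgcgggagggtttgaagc
Atp6v1a, chr16:44139260-44139509, minus strand: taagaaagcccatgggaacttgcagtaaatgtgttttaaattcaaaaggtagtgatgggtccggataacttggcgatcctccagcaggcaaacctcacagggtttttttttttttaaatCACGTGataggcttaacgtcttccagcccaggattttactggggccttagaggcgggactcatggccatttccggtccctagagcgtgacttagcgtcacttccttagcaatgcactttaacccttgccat
Gusb, chr5:130003050-130003299, minus strand: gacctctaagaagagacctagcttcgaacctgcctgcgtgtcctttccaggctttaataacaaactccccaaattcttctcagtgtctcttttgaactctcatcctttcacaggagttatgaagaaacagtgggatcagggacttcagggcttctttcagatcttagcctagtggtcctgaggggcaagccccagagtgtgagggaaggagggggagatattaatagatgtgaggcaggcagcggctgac
Grn, chr11:102430257-102430506, plus strand: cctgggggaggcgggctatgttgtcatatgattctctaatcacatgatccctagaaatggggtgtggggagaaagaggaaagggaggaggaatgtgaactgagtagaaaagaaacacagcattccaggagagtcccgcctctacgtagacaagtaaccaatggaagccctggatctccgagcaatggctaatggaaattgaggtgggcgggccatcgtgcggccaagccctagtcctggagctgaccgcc
Lamp1, a major glycoprotein of the lysosomal membrane, held 4 copies of CACGTG in this window. Mcoln1, the mucolipin calcium channel, held 2 copies, and Atp6v1a, the catalytic subunit of the pump, held 1. Windows from 250 bases before to 50 bases after a start were given for 32 members, and 7 members (Asah1, Atp6v0a2, Atp6v1b2, Atp6v1c1, Atp6v1g1, Atp6v1h and Npc1) were not searched. CACGTG, which reads the same on both strands, lay in the windows of 8 of the 32 members: Atp6v0b, Atp6v0d1, Atp6v0e, Atp6v1a, Gaa, Glb1, Lamp1 and Mcoln1. That is 25% of the members, beside 7.15% of all 32851 windows of this length and 8.09% of 27025 genes. The longer TCACGTGA, which contains it, lay in 4 members (Atp6v0d1, Atp6v0e, Atp6v1a and Mcoln1), or 12.5%, beside 0.974% of windows and 1.12% of genes. A match describes the letters in the window and is not a measured site.

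Of the 48 arrays, 5 stood apart from the rest: DIO-SC-3, DIO-SC-7, RW-SS-6, DIO-MS-1 and DIO-MS-6, where the last number names the animal. Their mean correlations with the other arrays were 0.954 to 0.979, beside at least 0.986 for the other 43. These arrays were high in genes of other tissues or of the interferon response: the mean deviation from the gene means was 7.06 for skeletal muscle and 7.16 for squamous epithelium on DIO-SC-3, 5.38 for thymus and 3.50 for T cell genes on DIO-SC-7, and 4.59 for adipocyte and brown fat genes on RW-SS-6. For interferon response genes it was 5.18 on DIO-MS-1 and 5.01 on DIO-MS-6. Many of the calls and counts that changed without these arrays are given both ways, but not all of them. The lung label was checked on the surfactant gene Sftpc, whose group means lay between 15.06 and 15.09, and on the club cell gene Scgb1a1, between 15.16 and 15.20.

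Mainstream smoke raised many of these lysosomal genes in both diets. In regular weight mice 19 of the 39 rose against air and 0 fell, at a Benjamini-Hochberg adjusted p below 0.05 in limma, beside 14.7% of all genes called in either direction, 6.61% higher and 8.07% lower. In obese mice 25 rose and 1 fell, beside 21.4% of all genes called, 11.7% higher and 9.76% lower. The median difference of the members was 0.14 in regular weight and 0.21 in obese mice, and that of all genes was −0.03 and −0.02. Most changes were small: Gusb, Atp6v1c1 and Grn were the members past both the adjusted p and 1.5-fold, all 3 in obese mice and Atp6v1c1 also in regular weight mice. In 8 members every mainstream array lay above every air array in regular weight mice, as in 2.78% of all genes, and in obese mice this held for 12, as in 3.03% of all genes. In bulk lung RNA, a change in the number of cells of a type and a change in the RNA per cell cannot be told apart.

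Macrophage markers moved along with these genes. In regular weight mice 9 of 15 measured markers rose and 1 fell with mainstream smoke (median difference 0.48), and in obese mice 10 rose and 3 fell (median 0.53). Their mean deviation per array lay between 0.37 and 0.98 in RW-MS and between 0.38 and 0.59 in DIO-MS. In air it lay between −0.31 and −0.22 (RW) and between −0.36 and −0.22 (DIO), so neither diet's mainstream and air arrays overlapped. Cd68, itself a glycoprotein of macrophage lysosomes, had group means of 9.85 in RW-SC and 11.21 in RW-MS, and of 9.55 in DIO-SC and 11.19 in DIO-MS. With sidestream smoke 0 of the 15 markers were called by limma in either diet, beside 2.17% of all genes in regular weight and 6.85% in obese mice. An unadjusted p below 0.05 was reached by 0 markers in regular weight and 3 in obese mice, beside 1976 and 2788 of all 12393 genes. The mean deviations of the markers per array lay between −0.35 and 0.06 (RW-SS) and between −0.43 and −0.13 (DIO-SS). Without the 5 arrays that stood apart, 10 markers rose and 1 fell in regular weight mice (median 0.48), and 9 rose and 2 fell in obese mice (median 0.38), while 1 fell with sidestream smoke in obese mice. For Cd68 the obese difference was 1.64 with them and 1.49 without them.

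Some markers of other cells were called as well with mainstream smoke, beside 14.7% of all genes in regular weight and 21.4% in obese mice. Of 7 markers of the surfactant-making alveolar type 2 cells, 1 rose and 2 fell in regular weight mice and 4 rose in obese mice. Of 5 markers of the flat type 1 cells, 3 fell in regular weight mice, and 1 rose and 2 fell in obese mice. In regular weight mice 2 of 5 endothelial and 3 of 4 B cell markers fell, and of 10 neutrophil markers 2 rose in regular weight and 3 in obese mice. When the 5 arrays were left out, 4 type 1, 3 endothelial and 4 of 5 T cell markers fell in regular weight mice, and 2 endothelial markers in obese mice. On the same arrays 2 type 2 markers rose and 2 fell in regular weight mice. In obese mice 0 type 1 markers then rose and 2 fell, and 2 neutrophil markers rose. Of all 12393 genes, 1267 then rose and 1748 fell in regular weight mice, and 1191 rose and 1038 fell in obese mice. The 3′ minus 5′ difference of the Actb probe sets, a measure of RNA integrity, had group means of 0.39 in RW-SC and 0.51 in RW-MS, and of 0.40 in DIO-SC and 0.39 in DIO-MS. The part of cell numbers and of RNA quality in the changes of the lysosomal genes was not tested.

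**Figure D1:**
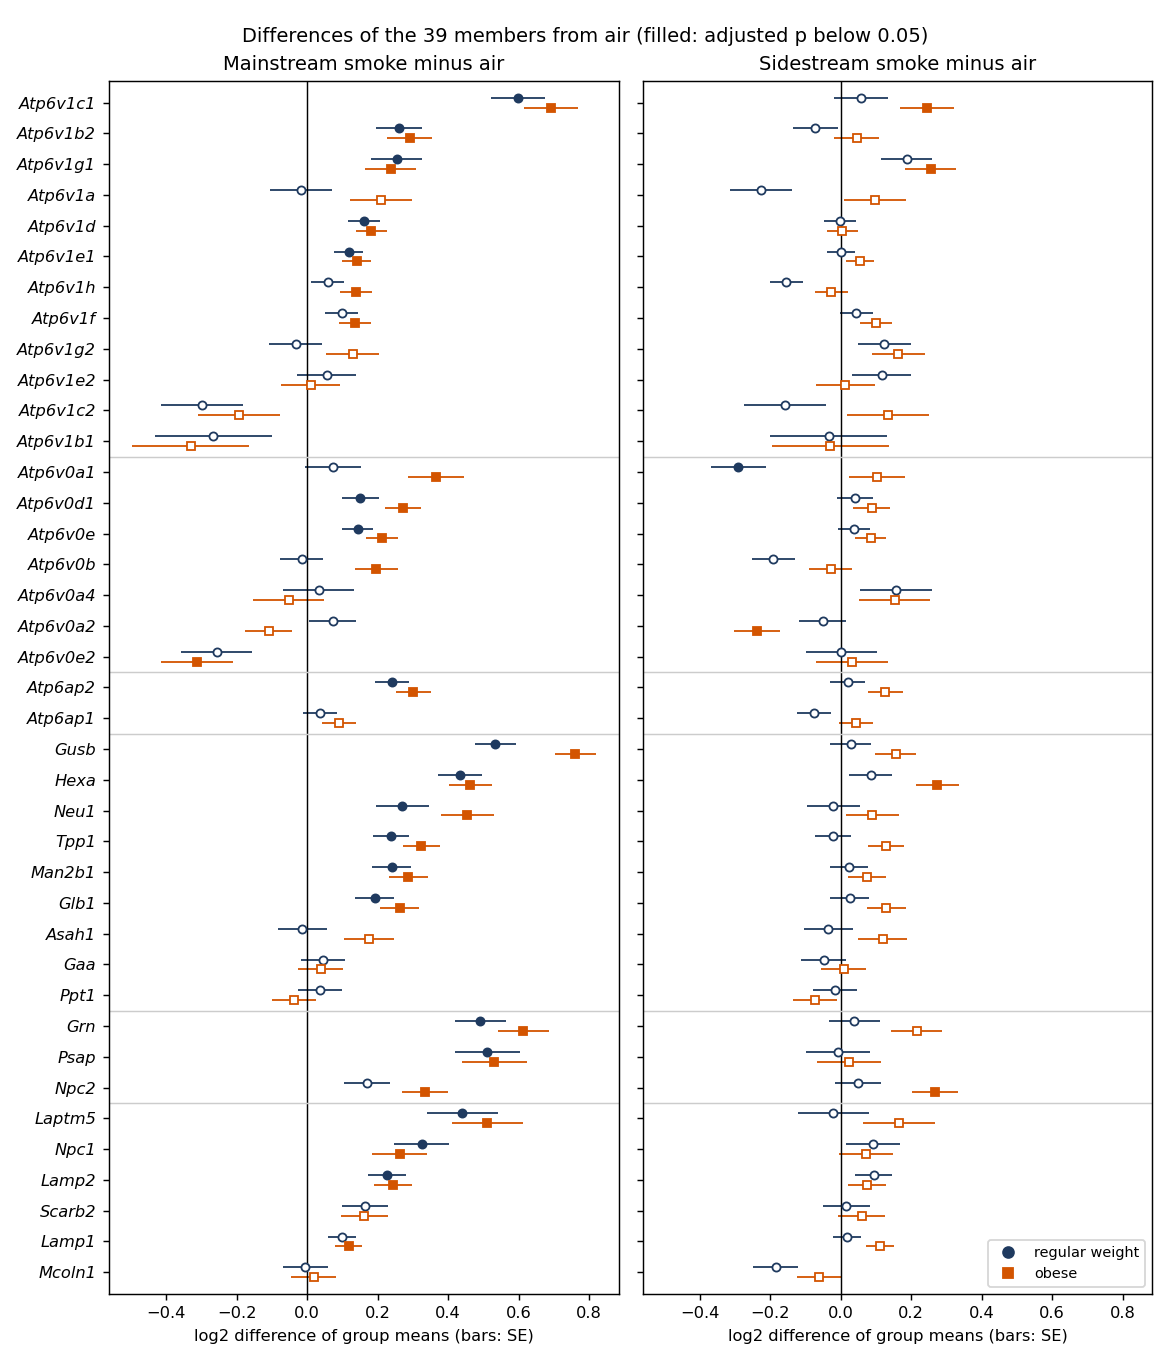
Difference of each of the 39 genes from air, on the horizontal axis in log2 units with bars for the standard error, for mainstream and sidestream smoke; colours and symbols mark the diets, and filled symbols have an adjusted p below 0.05. With mainstream smoke, 19 members in regular weight and 25 in obese mice are filled to the right of 0. With sidestream smoke, 0 and 4 are.

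Among the hydrolases, 6 of 9 rose with mainstream smoke in regular weight mice, and 6 of 9 in obese mice. Gusb, the β-glucuronidase that clips glucuronic acid from glycosaminoglycans, had the largest change of the 39 in obese mice. Its signal ran from 9.73 through a median of 9.80 to 10.05 in RW-SC, and from 10.24 through 10.30 to 10.67 in RW-MS. In obese mice it ran from 9.54 through 9.73 to 10.02 in air, and from 10.37 through 10.49 to 10.69 in mainstream smoke. All 8 mainstream arrays of each diet were above all 8 air arrays. Sidestream arrays lay lower, from 9.78 through 9.86 to 9.94 in RW-SS and from 9.83 through 9.89 to 10.03 in DIO-SS, and no sidestream array reached a mainstream one. The difference from air was 0.53 ± 0.06 (SE, n = 8 per group; 1.45-fold; limma adjusted p = 1.5e-09) in regular weight and 0.76 ± 0.06 (1.69-fold; limma adjusted p = 1.5e-14) in obese mice. Both probe sets of Gusb were called higher in both diets, so the choice of probe set did not decide the call.

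Hexa encodes the α chain of β-hexosaminidase, the enzyme that degrades GM2 ganglioside. Its signal ran from 10.88 through 11.14 to 11.19 in RW-SC and from 11.33 through 11.54 to 11.82 in RW-MS. In obese mice it ran from 10.67 through 11.03 to 11.18 in DIO-SC and from 11.39 through 11.44 to 11.70 in DIO-MS. The groups did not overlap in either diet. The rise was 0.43 ± 0.06 (SE) in regular weight and 0.46 ± 0.06 in obese mice, with limma adjusted p = 8.5e-07 and 8.8e-08. Neu1, the sialidase that trims sialic acid from glycoproteins, rose by 0.27 ± 0.08 and 0.45 ± 0.08. Its other probe sets, both dim, were not called (−0.11 and −0.01 in regular weight mice). Tpp1, a peptidase of the lysosomal lumen, rose by 0.24 ± 0.05 and 0.32 ± 0.05. Man2b1, the lysosomal α-mannosidase, rose by 0.24 ± 0.05 and 0.29 ± 0.05, while its second, dim probe set was not called (0.15 and 0.04). Glb1, the β-galactosidase, rose by 0.19 ± 0.06 and 0.26 ± 0.06. The call of Glb1 in regular weight mice was lost when the array RW-MS-7 was left out (adjusted p = 0.055). The other 3 hydrolases were not called by limma with mainstream smoke in either diet. Differences for Gaa, which breaks down glycogen, were 0.04 and 0.04. For Ppt1, which removes palmitate from proteins, they were 0.04 and −0.04, and for Asah1, the acid ceramidase, −0.01 and 0.18 (adjusted p = 0.93 and 0.065).

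Of the 3 luminal proteins without hydrolase activity, Grn and Psap rose in both diets and Npc2 in obese mice. Grn encodes progranulin, which is cut into granulins inside lysosomes. Its signal ran from 11.42 through 11.57 to 11.81 in RW-SC and from 11.84 through 12.06 to 12.40 in RW-MS. In obese mice it ran from 11.33 through 11.55 to 11.64 in air and from 11.92 through 12.08 to 12.45 in mainstream smoke. Every mainstream array again lay above every air array of its diet. In sidestream smoke it ran from 11.47 through 11.65 to 11.72 in RW-SS and from 11.60 through 11.71 to 11.84 in DIO-SS, overlapping the range in air. The rise with mainstream smoke was 0.49 ± 0.07 (1.41-fold; limma adjusted p = 1.9e-06) and 0.61 ± 0.07 (1.53-fold; limma adjusted p = 5.2e-09), and all 3 probe sets were called in both diets.

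Psap encodes prosaposin, the precursor of the saposins that present lipids to their hydrolases. Its signal ran from 12.71 through 13.15 to 13.18 in RW-SC and from 13.26 through 13.55 to 13.97 in RW-MS. The corresponding values were 12.59, 13.14 and 13.24 in DIO-SC and 13.38, 13.56 and 13.81 in DIO-MS. Neither pair of groups overlapped, and the rise was nearly equal in size in the diets, 0.51 ± 0.09 and 0.53 ± 0.09. Npc2, a soluble carrier that hands cholesterol to NPC1, rose by 0.34 ± 0.07 in obese mice and differed by 0.17 ± 0.07 in regular weight mice (limma adjusted p = 0.00012 and 0.072). Without the 5 arrays that stood apart, the values for Npc2 were 0.16 in obese and 0.17 in regular weight mice, and both were called (adjusted p = 0.03 and 0.0043). The second probe set of Npc2 was called in both diets with all arrays (0.19 in regular weight and 0.33 in obese mice).

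Of the 6 membrane proteins, 3 rose in regular weight mice (Laptm5, Lamp2 and Npc1) and 4 in obese mice (the same 3 and Lamp1). Laptm5 is a lysosomal membrane protein of blood-derived cells. Its signal ran from 10.92 through 11.40 to 11.47 in RW-SC and from 11.51 through 11.74 to 12.04 in RW-MS, with no overlap. In obese mice it ran from 10.84 through 11.12 to 11.67 in air and from 11.36 through 11.67 to 11.99 in mainstream smoke, and these groups overlapped. The highest air value was that of DIO-SC-7, an array that stood apart. The rise was 0.44 ± 0.10 and 0.51 ± 0.10, but the other 2 probe sets of Laptm5 differed by −0.04 and 0.15 in regular weight mice and were not called there. Npc1, the membrane exporter of cholesterol, rose by 0.32 ± 0.08 and 0.26 ± 0.08. Lamp2, a receptor of chaperone-mediated autophagy and a structural glycoprotein, rose by 0.23 ± 0.05 and 0.24 ± 0.05, and 2 of its 4 probe sets were called in each diet. Lamp1 differed by 0.10 ± 0.04 in regular weight and by 0.12 ± 0.04 in obese mice, where alone it was called (adjusted p = 0.08 and 0.024). Without the 5 arrays, the obese values of Npc1 and Lamp1 were 0.22 and 0.07 and neither was called (adjusted p = 0.054 and 0.12). Scarb2, the LIMP-2 carrier of glucocerebrosidase, differed by 0.16 ± 0.07 in both diets without a call, while its second probe set rose by 0.38 and 0.52. Mcoln1 differed by −0.01 and 0.02 and was not called, while its second probe set differed by 0.04 in regular weight mice without a call and rose by 0.13 in obese mice (limma adjusted p = 0.04).

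**Figure D2:**
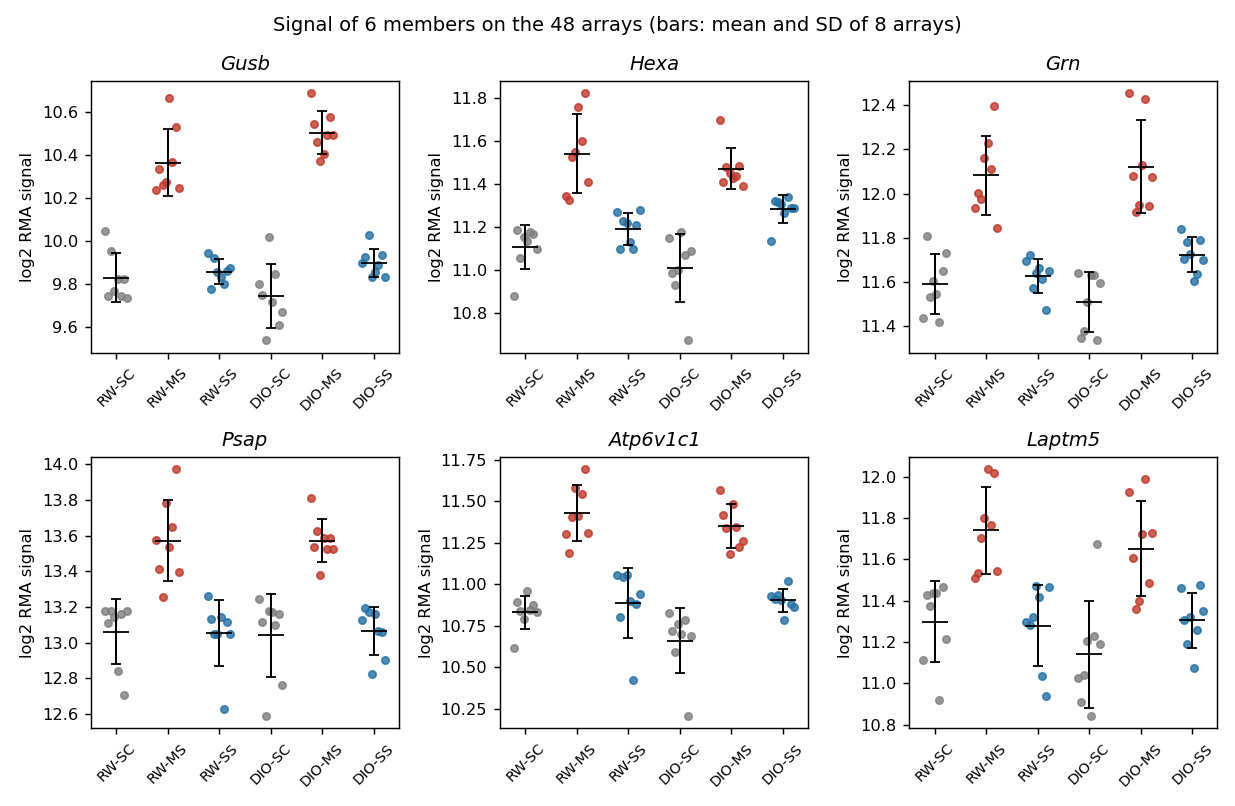
Signal of 6 members on each of the 48 arrays, in log2 RMA units on the vertical axis, by group; points are single arrays and bars give the mean and SD of 8 arrays. Gusb, Grn, Hexa, Psap and Atp6v1c1 sit above their air groups on every mainstream array of both diets, and Laptm5 does so in regular weight mice.

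The proton pump changed less evenly. Of its 21 genes, 8 rose in regular weight mice with mainstream smoke, and 12 rose and 1 fell in obese mice. Among the V1 subunits, 5 of 12 rose in regular weight and 7 of 12 in obese mice. Atp6v1c1, the widely expressed form of the C subunit that links the sectors of the pump, was the most changed. Its signal ran from 10.61 through 10.84 to 10.96 in RW-SC, and from 11.19 through 11.41 to 11.69 in RW-MS. In obese mice it ran from 10.21 through 10.71 to 10.82 in air, and from 11.18 through 11.34 to 11.57 in mainstream smoke. Air and mainstream arrays did not overlap in either diet. In sidestream smoke it ran from 10.42 through 10.92 to 11.05 in RW-SS and from 10.78 through 10.91 to 11.02 in DIO-SS, below every mainstream array. The rise with mainstream smoke was 0.60 ± 0.08 (1.51-fold; limma adjusted p = 9.5e-08) and 0.69 ± 0.08 (1.62-fold; limma adjusted p = 1e-09), and all 3 probe sets were called in both diets.

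Atp6v1c2, the C subunit form of lung and kidney, had values of the other sign: it differed by −0.30 ± 0.12 in regular weight and −0.19 ± 0.12 in obese mice and was not called by limma (adjusted p = 0.077 and 0.25). Without the 5 arrays it was called lower in regular weight mice (−0.30, adjusted p = 0.00072). Atp6v1b2, the B subunit of most tissues, rose by 0.26 ± 0.06 and 0.29 ± 0.06. Its 3 probe sets differed by −0.15 to 0.29 in regular weight and by 0.03 to 0.42 in obese mice, with 2 called in each diet. Atp6v1g1, of the peripheral stalk, rose by 0.25 ± 0.07 and 0.24 ± 0.07, but the mean of its 3 probe sets differed by 0.09 in regular weight mice without a call. The rotor subunit Atp6v1d rose by 0.16 ± 0.04 and 0.18 ± 0.04. The stalk subunit Atp6v1e1 rose by 0.12 ± 0.04 and 0.14 ± 0.04. This smallest call was fragile: leaving out single arrays ended it in regular weight mice for 11 of 16 arrays, and on the probe set kept when those marked as matching several transcripts were left out, the difference was −0.11 (adjusted p = 0.22) in regular weight and 0.04 in obese mice. Atp6v1f and Atp6v1h rose in obese mice (0.14 ± 0.05 for each) and not by the test in regular weight mice (0.10 and 0.06), and both calls were lost without the 5 arrays (adjusted p = 0.12 and 0.21). The catalytic subunit Atp6v1a differed by −0.02 and 0.21 without a call. The 3 remaining forms, Atp6v1b1, Atp6v1e2 and Atp6v1g2, are known for restricted expression, in kidney, testis and brain, and were not called.

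Among the 7 V0 subunits, Atp6v0d1 and Atp6v0e rose in both diets, Atp6v0a1 and Atp6v0b in obese mice, and Atp6v0e2 fell in obese mice. Atp6v0d1, which couples the rotor to the membrane ring, rose by 0.15 ± 0.05 and 0.27 ± 0.05, and Atp6v0e by 0.14 ± 0.04 and 0.21 ± 0.04. In regular weight mice the call of Atp6v0d1 was lost for 9 of 16 arrays left out singly, and that of Atp6v0e without RW-SC-4 or RW-SC-8. Atp6v0a1, a form of the large subunit that sets where the pump sits, ran from 9.24 through 9.57 to 9.65 in DIO-SC and from 9.69 through 9.78 to 10.23 in DIO-MS. These obese groups did not overlap, and the rise was 0.37 ± 0.08 (limma adjusted p = 0.00049), while in regular weight mice the difference was 0.07 ± 0.08. Its 4 probe sets differed by −0.001 to 0.42 in obese mice, and 2 of them were called. Atp6v0b, of the proton-carrying ring, rose by 0.20 ± 0.06 in obese mice, a call lost without DIO-SC-7 (limma adjusted p = 0.051) and also without the 5 arrays. Over the processing alternatives its obese difference went down to 0.13 and its limma adjusted p up to 0.16. Atp6v0e2, a second form of subunit e, fell by 0.31 in obese mice (SE 0.10; limma adjusted p = 0.022), from a median of 9.29 in air to 8.94. Without DIO-MS-1 and DIO-MS-6 the value was −0.21 and not called, and without all 5 arrays it was −0.33 and called, as it also was then in regular weight mice (−0.26, adjusted p = 0.0023). Atp6v0a2 and Atp6v0a4 were not called with mainstream smoke.

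Of the accessory proteins, Atp6ap2, the prorenin receptor needed for assembly of the pump, rose by 0.24 ± 0.05 and 0.30 ± 0.05. Atp6ap1 differed by 0.04 ± 0.05 and 0.09 ± 0.05 and was not called. Without the 5 arrays, 22 members rose and 2 fell in regular weight mice, and 20 rose and 1 fell in obese mice. Over all genes, 1267 then rose and 1748 fell in regular weight mice, beside 819 and 1000 with all arrays. In obese mice 1191 of all genes then rose and 1038 fell, beside 1448 and 1210. None of the 5 belongs to RW-SC or RW-MS, so the added regular weight calls (Lamp1, Npc2 and Scarb2 higher, Atp6v0e2 and Atp6v1c2 lower) came with unchanged differences and a smaller pooled spread. The median obese difference was 0.16 without them, beside 0.21 with them. Leaving out single arrays ended the obese calls of Lamp1 (DIO-SC-3 or DIO-SC-7), Atp6v1f (DIO-SC-1 or DIO-MS-1), Atp6v1h (DIO-SC-3, DIO-MS-1 or DIO-MS-4) and Atp6v0e2 (DIO-SC-2, DIO-MS-1 or DIO-MS-6), with adjusted p up to 0.079.

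**Figure D3:**
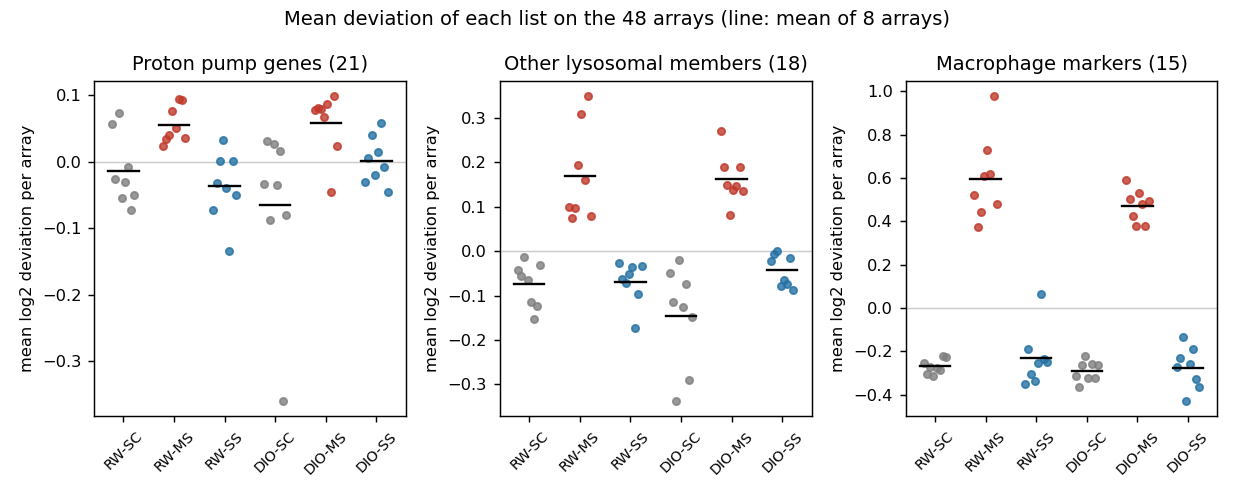
Mean deviation of a list's genes from their means over all arrays, in log2 units on the vertical axis, for each of the 48 arrays by group; points are arrays and lines are means of 8 arrays. The pump genes spread from −0.36 to 0.10, the other lysosomal members from −0.34 to 0.35 and the macrophage markers from −0.43 to 0.98, and for the last 2 lists no mainstream array overlaps an air array of its diet.

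Sidestream smoke changed few of these genes. In regular weight mice 0 of 39 rose and 1 fell by limma, beside 2.17% of all genes called, 0.694% higher and 1.48% lower. An unadjusted p below 0.05 was reached by 6 members, beside 1976 of all 12393 genes. The one that fell was Atp6v0a1, from 9.31, 9.70 and 9.89 (lowest, median and highest) in RW-SC to 8.98, 9.40 and 9.57 in RW-SS. The groups overlapped, the difference was −0.29 ± 0.08 (limma adjusted p = 0.036), and the call was lost for 8 of 16 arrays left out singly. Over its 4 probe sets the difference ran from −0.34 to 0.04, and 1 was called. In obese mice 4 rose and 1 fell, beside 6.85% of all genes called, 4.26% higher and 2.59% lower. Hexa rose by 0.27 ± 0.06 (limma adjusted p = 0.0032), Npc2 by 0.27 ± 0.07 (0.0077), Atp6v1g1 by 0.26 ± 0.07 (0.023) and Atp6v1c1 by 0.24 ± 0.08 (0.042). Atp6v0a2, a form of the large subunit found on endosomes and Golgi, fell by 0.24 (SE 0.07; adjusted p = 0.02). Of the 5 arrays that stood apart, 2 are obese air arrays. Without the 5, the value for Atp6v1c1 was 0.16 and that for Atp6v0a2 −0.22, neither called (adjusted p = 0.09 and 0.05), and the value for Npc2 was 0.16, still called. Single arrays ended the calls of Atp6v1g1 (without DIO-SC-7) and Atp6v0a2 (without DIO-SS-6), and for Atp6v1c1 this held for 9 of 16 arrays. No member had every sidestream array above every air array in either diet, as 0.161% of all genes did in regular weight and 0.976% in obese mice.

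The smokes were also compared directly within each diet, a comparison that shares its mainstream arrays with the one against air. In regular weight mice 16 members were higher in mainstream than in sidestream smoke and 0 lower, beside 9.77% of all genes called, 6.05% higher and 3.72% lower. In obese mice 18 were higher and 2 lower, beside 16.8% of all genes called, 8.83% higher and 8% lower. Gusb was higher by 0.51 ± 0.06 in regular weight and 0.60 ± 0.06 in obese mice, Atp6v1c1 by 0.54 ± 0.08 and 0.45 ± 0.08, and Psap by 0.52 ± 0.09 and 0.51 ± 0.09. Atp6v1h, the regulatory H subunit, was higher by 0.21 ± 0.05 and 0.17 ± 0.05 in mainstream smoke, and its sidestream differences from air were −0.15 and −0.03, not called. The genes lower in obese mainstream lungs were Atp6v0e2 (−0.34 ± 0.10, with all 8 arrays below all 8 sidestream arrays) and Atp6v1c2 (−0.33 ± 0.12). Such a full separation downward in obese mice was found for 1 member, beside 245 of all 12393 genes. All 8 mainstream arrays lay above all 8 sidestream arrays for 8 members in regular weight mice and 9 in obese mice, as in 2.97% and 3.82% of all genes. Without DIO-MS-1 and DIO-MS-6, 12 members were higher in obese mice and 0 lower. Over all genes 590 were then higher and 267 lower, beside 1094 and 992 with all arrays. Without the 5 arrays, 21 members were higher and 1 lower in regular weight mice, beside 1086 and 1030 of all genes. In obese mice 15 were then higher and 1 lower, beside 883 and 599 of all genes.

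Whether the diets differed in their response was tested by the difference of the differences. No member passed it in limma for mainstream smoke, beside 0.888% of all genes, or for sidestream smoke, beside 0.654%, and none did with a trended, robust variance. An unadjusted p below 0.05 was reached by 3 members for mainstream and 5 for sidestream smoke, beside 1727 and 1512 of all 12393 genes. For mainstream smoke these were Gusb, whose response was larger in obese mice by 0.23 (95% interval 0.06 to 0.39), Atp6v0a1 (0.29, interval 0.07 to 0.52) and Atp6v0b (0.21, interval 0.04 to 0.38). The value for Gusb was 0.14 without the 5 arrays, and the obese call of Atp6v0b against air was lost without them. For sidestream smoke Atp6v0a1 had the largest value, 0.39 (interval 0.17 to 0.62; adjusted p = 0.085), since its difference from air was −0.29 in regular weight and 0.10 in obese mice. Over its 4 probe sets this value ran from 0.11 to 0.39, and that for mainstream smoke from 0.04 to 0.42. The other members with an unadjusted p below 0.05 for sidestream smoke were Atp6v1a (0.32), Npc2 (0.22), Hexa (0.19) and Tpp1 (0.15). For Psap, whose rise was alike in size, the interval of the mainstream difference still ran from −0.24 to 0.28, and for Grn from −0.08 to 0.33.

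**Figure D4:**
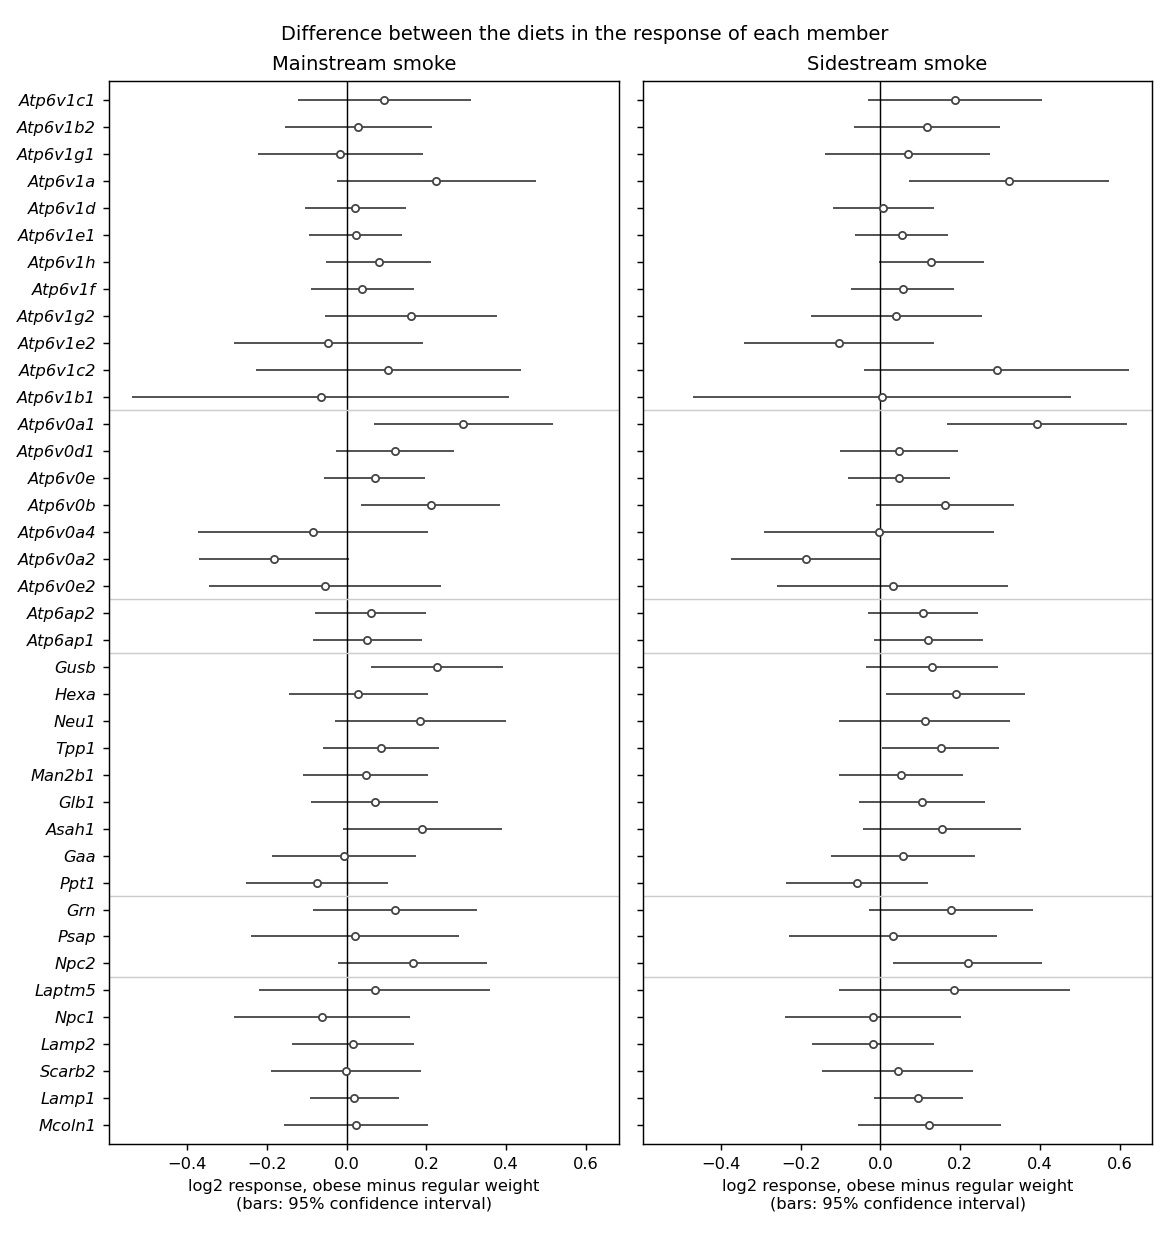
Response to smoke in obese minus that in regular weight mice for each of the 39 genes, on the horizontal axis in log2 units, with bars for the 95% confidence interval, for mainstream and sidestream smoke. The interval lies off 0 for 3 members in the mainstream panel (Gusb, Atp6v0a1, Atp6v0b) and for 5 in the sidestream panel, and none passes after adjustment over all genes. Of all 12393 genes, 1727 and 1512 had an unadjusted p below 0.05.

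In filtered air, diet alone went with a change in 1 member. Atp6v0a2 was higher in obese mice by 0.27 ± 0.07 (limma adjusted p = 0.0068), with 8.51, 8.74 and 8.95 (lowest, median and highest) in RW-SC and 8.77, 9.01 and 9.19 in DIO-SC, beside 8.28% of all genes called, 2.29% higher and 5.99% lower. The groups overlapped, and 5 of 8 obese arrays lay above all regular weight arrays. A total of 32 of the 39 differences were below 0, as were 7437 of all 12393 genes. The median was −0.07, beside −0.03 for all genes. Of the members with differences below 0, those of the lowest unadjusted p were Atp6v1c2 (−0.35), Asah1 (−0.18) and Npc2 (−0.16), and none was called. Without the 5 arrays the median was −0.03, and Atp6v1b1, the B subunit form of kidney, was called higher as well (0.60, adjusted p = 0.011). The comparison shares its air arrays with the smoke contrasts of each diet.

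Members with CACGTG in the printed kind of window were compared with those without it, as a description. With mainstream smoke in regular weight mice, 3 of the 8 with the motif rose and their median difference was 0.07, while 12 of 24 without it rose with a median of 0.16. In obese mice 5 of 8 rose with a median of 0.20, beside 15 of 24 that rose and 1 that fell, with a median of 0.21.

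Other genes of the lysosome, from lists that do not overlap the 39, were read the same way. Of all genes, 6.61% rose and 8.07% fell with mainstream smoke in regular weight mice, and 11.7% rose and 9.76% fell in obese mice. Of 22 further hydrolases and activators, 9 rose with mainstream smoke in regular weight and 13 in obese mice and 0 fell. The largest were Gla, the α-galactosidase (0.74 ± 0.16 and 1.21 ± 0.16), and Lgmn, the asparaginyl endopeptidase (0.48 ± 0.12 and 0.88 ± 0.12). Ifi30, an interferon-induced thiol reductase of the lysosome, rose by 0.32 ± 0.08 and 0.78 ± 0.08, and Naglu, which degrades heparan sulphate, by 0.40 ± 0.07 and 0.53 ± 0.07. On the other 43 arrays 11 rose in regular weight and 12 in obese mice, and the obese differences of Gla and Lgmn were 0.78 and 0.56. For Ifi30 the diets differed in response (0.46 ± 0.11, limma adjusted p = 0.028), as for Acp2, the lysosomal acid phosphatase (0.36 ± 0.09, adjusted p = 0.037); without the 5 arrays 0 of the 22 did so. With sidestream smoke, 0 of the 22 were called by limma in regular weight mice and 1 was in obese mice, beside 2.17% and 6.85% of all genes. In regular weight mice 5 of the 22 had an unadjusted p below 0.05, beside 1976 of all 12393 genes.

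Of 18 further membrane proteins and transporters, 6 rose and 1 fell in regular weight mice, and 8 rose and 1 fell in obese mice. Mcoln3, a mucolipin channel like Mcoln1, rose by 1.24 ± 0.11 and 1.11 ± 0.11, and Mcoln2 by 0.43 ± 0.12 and 0.81 ± 0.12. Slc11a1, the metal transporter of phagosomes, rose by 0.61 ± 0.09 and 0.90 ± 0.09. In obese mice, 8 of the 18 rose without the 5 arrays and the 1 that fell was no longer called. Among 4 pump partners whose symbols fall outside the prefix, Tcirg1, the large V0 subunit form a3 of lysosomes and osteoclasts, rose by 0.55 ± 0.10 and 0.64 ± 0.10, the obese value being 0.40 without the 5 arrays. Its sidestream differences were −0.02 and 0.02. Tcirg1 thus had a larger difference with mainstream smoke than any large subunit form among the 39 (Atp6v0a1, Atp6v0a2 and Atp6v0a4), whose differences ran from −0.11 to 0.37; the gap between them was not tested.

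Of 9 genes that target enzymes to lysosomes, 2 rose and 1 fell in regular weight mice and 2 rose in obese mice. Gnptab, which makes the mannose 6-phosphate tag, rose by 0.74 ± 0.08 and 0.79 ± 0.08. Of 14 transcription factors and genes of mTORC1 docking, 3 rose and 2 fell in regular weight mice and 4 rose and 2 fell in obese mice. The counts without the 5 arrays were 4 and 2 in regular weight mice, and in obese mice 2 rose and no call was lower. Tfec, a relative of TFEB found in macrophages, rose by 0.70 ± 0.13 and 0.75 ± 0.13, and Mitf, another relative, by 0.42 ± 0.07 and 0.23 ± 0.07, the obese call of Mitf being lost without the 5 arrays (0.11, adjusted p = 0.33). The transcript of Tfeb itself differed by −0.04 in obese mice and by −0.0030 in regular weight mice and was not called. Zkscan3, a repressor of lysosomal genes, fell by 0.25 and 0.21, and its obese call was lost without the 5 arrays (−0.17, adjusted p = 0.16). Rraga, a GTPase of mTORC1 docking, fell by 0.28 in regular weight mice (limma adjusted p = 0.046) and differed by −0.10 in obese mice without a call. Of 12 autophagosome genes 0 rose and 2 fell in regular weight mice, and 1 rose and 1 fell in obese mice. Beside these lists, 14.7% of all genes were called in regular weight and 21.4% in obese mice. Gabarapl1, an ATG8 family protein, fell by 0.34 and 0.25. When the 5 arrays were left out, 3 of the 12 fell in regular weight and 2 in obese mice, and 3 of the 9 targeting genes rose in each diet. Of all 12393 genes, 1267 then rose and 1748 fell in regular weight mice, and 1191 rose and 1038 fell in obese mice.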

How the data were processed

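RMA, named in the submitters' processing notes, gave the log2 values that the authors deposited (version not given in the sources used here). RMA subtracts background, quantile normalizes arrays and summarizes probes, so a shift shared by most genes would be removed. Of 22690 probe sets, the 20380 used had 1 symbol in the array's annotation, and the brightest stood for each of 12393 genes; 23 members had several probe sets. Group means were fitted over all 48 arrays in R 4.3.3 by limma 3.58.1 (lmFit and an untrended eBayes; the files were read by data.table in its version 1.17.8). P-values are two-sided and Benjamini-Hochberg adjusted within each of 9 contrasts, and a gene was called at an adjusted p below 0.05. Errors are standard errors of the fit. The number of arrays, 8 per group, limits the precision. The code was tested on simulated data. Same-numbered arrays of different groups were not paired: over 120 such pairs, the mean correlation of deviations from group means was 0.02 (42 pairs over 0.1). In RW-MS and in RW-SS, the source names of animals 7 and 8 carry 5 and 6 again, and they were counted as animals of their own; no arrays held identical values (highest correlation of a pair 0.998).

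Members past the adjusted p and 1.5-fold were described array group by array group. Psap, Hexa and Laptm5, and Atp6v0a1, Atp6v0a2 and Npc2, were added after their values were seen. Outside the 39, up to 4 called genes of each list, by the largest difference from air, could be named, and not all of these are; Acp2, Tfeb and the marker Cd68 were added after their values were seen. The members and lists were chosen with earlier results of these data known. Promoter windows are RefSeq's for GRCm38.p6, matched by symbol.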

Additional observations from a re-analysis of the deposited data

Results flagged for a closer look

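In 25 of 234 combinations of a member and a group, the highest or lowest of the 8 arrays lay far from the other 7 relative to the group's range. Chance alone gives about 1 in 20, or 11.7 here. A total of 13 of the 25 were on the 5 arrays that stood apart, and what set these values apart was not tested. In no member did every array of the diets move in opposite directions.

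Among the pump genes, the values far below the others on DIO-SC-7 were those of Atp6ap1 (11.23), Atp6v0e2 (8.26, against 9.21 for the next array), Atp6v1c1 (10.21) and Atp6v1c2 (8.67, against 9.56 for the next). On RW-SS-6 they were Atp6ap2 (11.53), Atp6v1b2 (10.53) and Atp6v1c1 (10.42). Outside the pump, Lamp1 (13.00) and Psap (12.63) were low on RW-SS-6, Laptm5 was high on DIO-SC-7 (11.67), and Man2b1 was low on DIO-SC-3 (10.72). Hexa (11.70) and Neu1 (9.13) were high on DIO-MS-1.

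On the other arrays, the far values of pump genes were Atp6ap2 on DIO-MS-2 (12.14, high), Atp6v0a1 on RW-SS-1 (8.98, low), Atp6v0e on DIO-SC-4 (11.56, high) and Atp6v1d on RW-SC-6 (10.21, low). Among the dim forms they were Atp6v1e2 on RW-SC-6 (5.39, high) and on DIO-SS-1 (4.61, low), and Atp6v1g2 on RW-MS-4 (5.75, low). Among the hydrolases they were Gaa on DIO-MS-7 (10.31, high), Glb1 on DIO-SS-3 (9.03, high), Hexa on RW-SC-1 (10.88, low) and on DIO-SS-1 (11.14, low), and Tpp1 on RW-SS-5 (11.98, high).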

How the results depend on the processing

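The 19 regular weight and 26 obese calls with mainstream smoke kept their direction under each alternative except Atp6v1e1, which read −0.11 in regular weight mice with probe sets of shared matches left out. With the contrast's own groups alone, 2 regular weight calls (Atp6v0d1, Atp6v0e) and 7 obese ones (Atp6v0b, Atp6v0e2, Atp6v1e1, Atp6v1f, Atp6v1g1, Atp6v1h, Lamp1) were lost, and with the mean of all probe sets 4 regular weight ones (Atp6v1e1, Atp6v1g1, Laptm5, Neu1). The counts of members called for mainstream smoke against air stayed within 1.5 times of the main ones. For regular weight sidestream smoke, the 1 call became 2 with quantile normalization repeated or the dimmest 0.25 of genes left out, 3 without the 5 arrays that stood apart, and 0 with the mean of all probe sets, with a fit of the contrast's own groups alone, or with the replicate number as a block. For obese sidestream smoke, the 5 calls became 9 with quantile normalization repeated and 2 with the contrast's own groups alone. For obese mainstream against sidestream smoke, the 20 calls became 12 without DIO-MS-1 and DIO-MS-6, an alternative chosen after seeing the data. Over all genes, 1094 higher and 992 lower became 590 and 267 in that setting. For diet in air, the 1 call became 2 with the dimmest 0.25 left out, 2 without the 5 arrays, 2 without DIO-MS-1 and DIO-MS-6, and 0 with the contrast's own groups alone.

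Leaving out 1 array at a time gave 16 to 20 calls for mainstream smoke in regular weight and 23 to 28 in obese mice, 0 to 2 and 3 to 7 for sidestream smoke, 14 to 18 and 17 to 20 between the smokes, and 1 to 5 for diet in air. For the differences between the diets it gave 0 to 0 with mainstream and 0 to 1 with sidestream smoke. For obese sidestream smoke the lowest count, 3, came without DIO-SC-7 or DIO-SS-6, and for diet in air the highest, 5, without DIO-SC-4. The replicate numbers were not shown to pair the arrays, since 6 of 48 correlated best with their own number. The block changed 1 regular weight mainstream call (Atp6v0d1), 1 regular weight sidestream call (Atp6v0a1) and 1 obese sidestream call (Atp6v1c1). Over all genes, the calls without the 5 arrays were 1267 higher and 1748 lower for regular weight mainstream smoke, beside 819 and 1000 with them. Centring each array on its median moved the share of higher among all called genes for regular weight sidestream smoke from 32.0% to 49.3%, and for diet in air from 27.7% to 43.4%, with 1 member called in each as before. For regular weight mainstream against sidestream smoke it moved it from 61.9% to 51.2%, with 15 members higher in place of 16. The causes of these changes were not tested. The dimmest 0.25 of genes held 4 of the 39, where a change is hardest to measure.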
